A study of Mus musculus with 4 samples.

Results

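The genes described here are the induced ubiquitin ligase Pja2, its paralog Pja1, and 8 genes of protein kinase A: the catalytic subunits Prkaca and Prkacb, the regulatory subunits Prkar1a, Prkar1b, Prkar2a and Prkar2b, and the inhibitors Pkia and Pkig. They were chosen by symbol, with earlier results of these data known, and all 10 were found among the 24689 genes of the deposited table. Of these 10, 9 had a mean of at least 1 CPM (reads scaled to the library total) over the libraries and were tested with the other genes that passed this filter, 13276 in all. Prkar1b lay under the filter.

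RNA was sequenced from HT-22 cells, an immortalized mouse hippocampal cell line, at passages 21 to 24. The 4 libraries comprised 2 of control cells, which the labels call both wild type and uninduced, and 2 of cells with induced Pja2, titled Pja2-pb, a tag the labels do not explain. The sources used here do not name the inducing agent, the promoter or the number of clones, so a difference between cell lines cannot be told apart from an effect of induction. Nothing in the labels says that replicates were separate cultures, and the spread that p-values rest on may be technical.

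Protein kinase A is the main cytosolic receptor of cyclic AMP. At rest, a pair of regulatory subunits holds a pair of catalytic subunits inactive, and cyclic AMP bound to the regulatory subunits sets the kinase free. Type II regulatory subunits (Prkar2a, Prkar2b) bind A-kinase anchoring proteins with high affinity, whereas Prkar1a, a type I subunit, is largely cytosolic and found in nearly every cell. PJA2, also called praja2, is a RING-type E3 ligase that is itself such an anchor: it binds the type II holoenzyme and, when cyclic AMP rises, ubiquitinates regulatory subunits for degradation by the proteasome. In neurons Prkar2b and Prkar1b are the characteristic regulatory isoforms, and praja2 has been linked to synaptic plasticity.

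The part of a regulatory subunit or inhibitor that lies in the active site of the kinase is short, and its coding sequence is shown because it separates the subunit types whose transcripts are compared next. In type II subunits this stretch holds a residue that the kinase phosphorylates, while type I subunits and the inhibitors hold a residue there that cannot be phosphorylated. Capitals mark the 5 codons of the site, with 12 coding bases on either side, 5′ to 3′, from GENCODE M21 transcripts (GRCm38). The site began at codon 96 in both type I genes, at codon 94 in Prkar2a, at codon 109 in Prkar2b and at codon 19 in both inhibitor genes, counted from the start codon.
Prkar1a: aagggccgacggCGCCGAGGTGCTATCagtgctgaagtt
Prkar1b: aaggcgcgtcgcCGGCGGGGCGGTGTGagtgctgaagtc
Prkar2a: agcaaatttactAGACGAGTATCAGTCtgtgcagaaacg
Prkar2b: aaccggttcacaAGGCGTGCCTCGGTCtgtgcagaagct
Pkia: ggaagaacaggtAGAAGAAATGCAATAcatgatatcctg
Pkig: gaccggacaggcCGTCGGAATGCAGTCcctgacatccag

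The paralogs are close enough that reads could in principle be shared between them, so their sequences were compared. Aligned coding sequences were identical at 65.7% of 1666 bases for Pja2 and Pja1, at 80.2% of 1053 bases for Prkaca and Prkacb, at 75.2% of 1139 bases for Prkar1a and Prkar1b, at 72.2% of 1192 bases for Prkar2a and Prkar2b, and at 65.7% of 198 bases for Pkia and Pkig. No window of 50 bases was shared by the annotated transcripts of any of these pairs. The longest run that the coding sequences had in common was 23 bases for the Praja genes, 34 for the catalytic subunits and 36 for the type II subunits, given here as the limit on how far a read could fit both genes exactly. The sources used here do not name the read length.
Pja2 and Pja1: gtggactggagcctgtttgatgg
Prkaca and Prkacb: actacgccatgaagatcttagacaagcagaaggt
Prkar2a and Prkar2b: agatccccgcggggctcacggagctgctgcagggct

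Reads in genes totalled 25787452 in control replicate 1, 31010351 in control replicate 2, 30080376 in induced replicate 1 and 35262653 in induced replicate 2, so the second replicate of each group was the deeper one. Values are normalized reads (read counts scaled between libraries by the authors), and a log2 fold change is the induced mean minus the control mean of log2(normalized reads + 1) from limma, with its standard error (SE) or 95% interval. Adjusted p-values are Benjamini-Hochberg values over the 13276 tested genes, with a threshold of 0.05. Of all tested genes 2.08% were called higher and 1.34% lower in induced cells, 3.42% in all. The share of all tested genes at an unadjusted p under 0.05 was not counted but lay above the nominal rate. In the limma fit Ep300, at an unadjusted p of 0.0503, had an adjusted p of 0.262. A share at the nominal rate would have given a far higher adjusted p. Counts at that p are given below without a background and are not to be read against the nominal rate. The labels give the cells as hippocampal neurons. Of 12 neuron markers 4 passed the filter, among them Eno2 (4036 ± 101 in controls, SD, n = 2) and Syn1 (1136 ± 70.0), Nefl, Dcx, Stmn2 and Syt1 lay under it, and Map2, Rbfox3, Snap25 and Nefm had no row and were not analysed here. The fibroblast markers were abundant (6 of 7 tested, Col1a2, named after its values were seen, at 180587 ± 13066 in controls), while the 4 endothelial markers all lay under the filter. Of the other glial and immune lists, 2 astrocyte, 2 microglia and 1 oligodendrocyte marker passed the filter and limma called 0 of these 5, with 3 at an unadjusted p under 0.05 and 1 called by limma voom on the recovered reads. The 1 called by voom was the astrocyte marker Aldh1l1, and the most abundant of these markers were Slc1a3 for astrocytes and Tmem119 for microglia.

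Pja2 (ENSMUSG00000024083, chromosome 17), the induced gene, had 6167 and 5881 normalized reads in control replicates 1 and 2 and 54830 and 54244 in the induced replicates. Both induced libraries lay far above both controls, and replicates of a group were within 1.05-fold of each other. The means were 6024 ± 202 and 54537 ± 415 (SD, n = 2), a 9.05-fold difference with a limma log2 fold change of 3.18 (95% interval 3.03 to 3.32, adjusted p = 6.36e-05). By normalized reads per kilobase of exon, Pja2 had ranks 1872 and 2043 among the 24591 genes with an annotated length in the control libraries and ranks 164 and 160 in the induced libraries. Its share of all reads went from 0.0190% and 0.0180% to 0.168% and 0.166%. Reads of an introduced copy and of the resident gene cannot be told apart in gene-level values.

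The genes next to Pja2 on chromosome 17 were looked up by position, after the Pja2 result was known. Fer, a tyrosine kinase gene on one side, had 2694 and 2904 normalized reads in controls and 2447 and 2421 in induced cells (log2 fold change -0.20, SE 0.07, adjusted p = 0.217). Man2a1, a Golgi mannosidase gene on the other side, had 8086 and 7643 against 7437 and 7324 (-0.09, SE 0.06, adjusted p = 0.476). Neither neighbour passed the test.

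**Figure D1:**
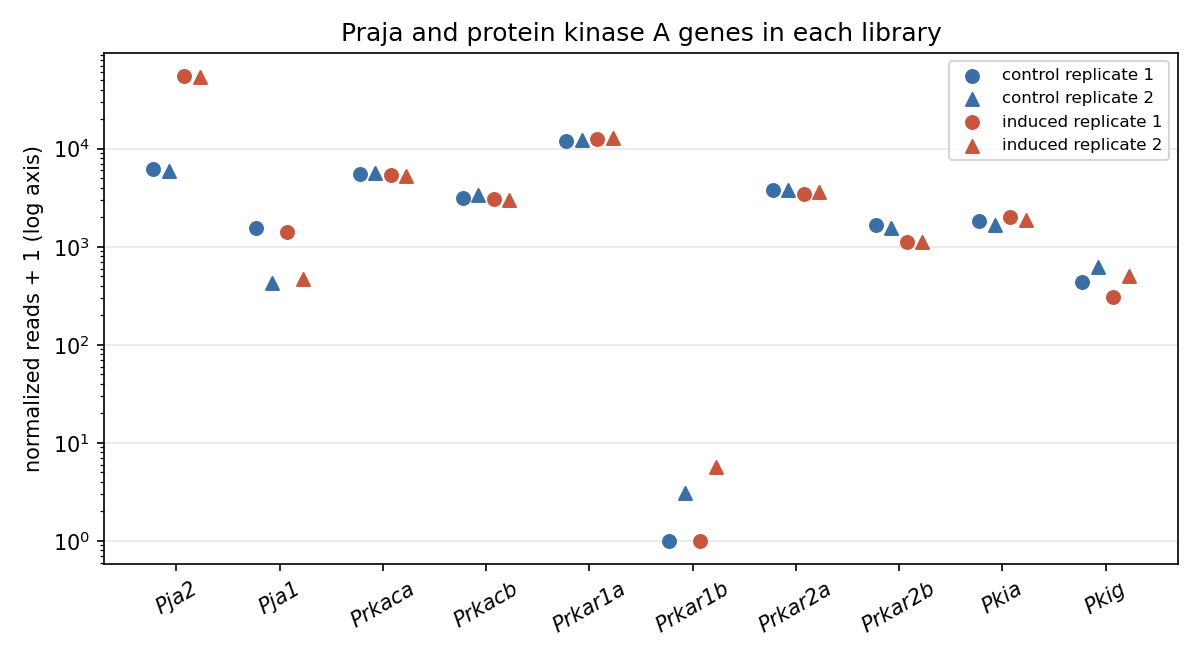
Normalized reads + 1 (log axis) of each of the 10 genes in each library, with control libraries in blue, induced libraries in red, circles for replicate 1 and triangles for replicate 2. Pja2 stands at 54830 and 54244 in induced cells against 6167 and 5881 in controls, Pja1 splits by replicate number in both groups, and Prkar1b is at or near 0.

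Pja1 (ENSMUSG00000034403, chromosome X), a RING ligase known to act on MAGED1 and other nuclear and cytoskeletal proteins, had 1537 and 429 normalized reads in control replicates 1 and 2 and 1403 and 467 in induced replicates 1 and 2. The first replicate was the higher one in each group, 3.59-fold in controls and 3.0-fold in induced cells, and the groups overlapped. Within replicate 1 the induced library held 0.913 times the control value, and within replicate 2 it held 1.09 times that value. The labels do not say that libraries of the same number are pairs. The log2 fold change between groups was -0.0034 (SE 0.72), and its 95% interval, -1.78 to 1.77, spans 0.291 to 3.42 times the control level. Changes within that range are not excluded at this spread, and the ends of the interval are not the limit for a call. The low libraries were the deeper ones, and rested on 407 and 504 reads, so counting error was small beside the gap; the part of depth in it was not tested.

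A split by replicate number of at least 2-fold in both groups was rare. Among the 11652 tested genes with a mean of at least 100 normalized reads, 0.0687% (8 genes) had replicate 1 at least 2-fold above replicate 2 in both groups, and 0.103% (12 genes) showed the opposite split. Replicates at least 2-fold apart in the controls alone, in either direction, made up 1.08% of these genes, and in the induced cells alone 1.07%. Over all 13276 tested genes, the replicate difference in controls and that in induced cells had a correlation of -0.095 across genes, which are not independent replicates.

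Pkig also split by replicate number, with the second replicate above the first by 0.51 on the log2 scale in controls and by 0.71 in induced cells. None of the remaining 7 tested genes had replicates further apart than 0.132 on the log2 scale.

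**Figure D2:**
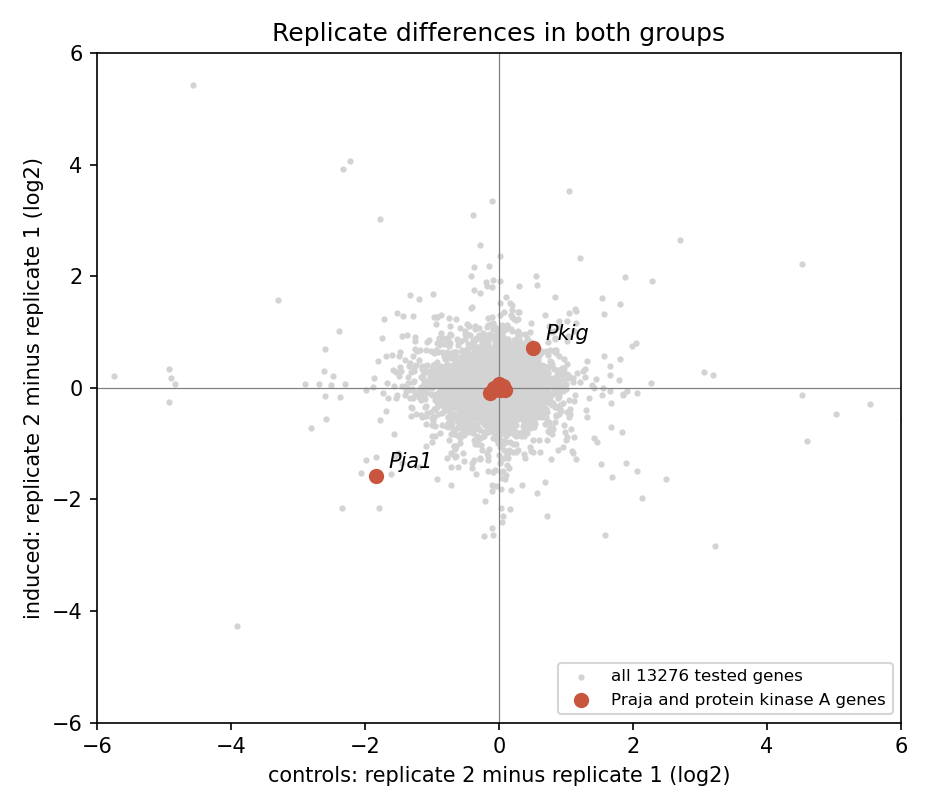
Difference between replicate 2 and replicate 1 (log2) in controls on the horizontal axis and in induced cells on the vertical axis, for the 13276 tested genes in grey and the 9 tested Praja and protein kinase A genes in red; 15 genes lie outside the axes, which end at 6. Pja1 sits at -1.84 and -1.58, and Pkig at 0.51 and 0.71.

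By level per length of exon, Pja2 exceeded Pja1 in every library. Pja2 stood at 905 ± 30.4 normalized reads per kilobase of exon in controls and 8192 ± 62.3 in induced cells, and Pja1 at 296 ± 236 and 281 ± 199. The ratio of the levels was 2.0 and 6.85 in controls and 19.5 and 57.9 in induced cells. The groups did not overlap, and within each group the ratio followed the split of Pja1 by replicate number. With 2 libraries a group, an exact two-sided permutation test cannot go below 0.333, the value this ratio gave.

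Neither catalytic subunit gene passed the test. Prkaca (ENSMUSG00000005469, chromosome 8), which encodes the catalytic subunit found in most tissues, had 5557 and 5636 normalized reads in controls and 5441 and 5323 in induced cells. Prkacb (ENSMUSG00000005034, chromosome 3), whose product is abundant in brain, had 3165 and 3372 against 3080 and 2982. Both genes were lower in both induced libraries than in both controls. The means were 5597 ± 56.3 in controls and 5382 ± 83.5 in induced cells for Prkaca, and 3269 ± 146 and 3031 ± 69.2 for Prkacb (SD, n = 2). Of all tested genes, 25.1% had both induced libraries below both controls. The log2 fold changes were -0.06 (95% interval -0.20 to 0.09, adjusted p = 0.649) for Prkaca and -0.11 (-0.28 to 0.06, adjusted p = 0.449) for Prkacb. The intervals bound the fold at 0.870 to 1.06 and at 0.825 to 1.04 times the control level. Per kilobase of exon Prkaca made up 86.1% and 85.5% of the catalytic level, the sum of Prkaca and Prkacb, in controls and 86.2% and 86.3% in induced cells. Prkx, the X-linked relative of the catalytic subunits, named after its values were seen, had 1446 and 1283 normalized reads against 1516 and 1424, and did not pass either (log2 fold change 0.11, adjusted p = 0.573).

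Prkar1a (ENSMUSG00000020612, chromosome 11), the type I subunit known as a tumour suppressor in endocrine tissue, had 11848 and 12331 normalized reads in controls and 12632 and 12853 in induced cells. It was slightly higher in both induced libraries, as were 26.2% of all tested genes, and did not pass the test (log2 fold change 0.08, 95% interval -0.07 to 0.22, adjusted p = 0.531). Its level per kilobase of exon, 2798 ± 79.1 in controls, was the highest of the regulatory subunits.

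Prkar1b (ENSMUSG00000025855, chromosome 5), the type I isoform of neurons, had 0 and 2 reads in the control libraries, and the induced libraries had 0 and 5. A count of 0 allows up to 3 reads, or 3.77 normalized reads in control replicate 1 and 3.26 in induced replicate 1. No fold can be given, and the few reads are also uncertain because its annotated exons overlap those of the gene model Gm15672 over up to 341 bases. The exons of the other 9 genes overlap no other annotated gene.

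Prkar2a (ENSMUSG00000032601, chromosome 9), the broadly expressed type II subunit, had 3784 and 3785 normalized reads in controls and 3439 and 3615 in induced cells. It lay lower in both induced libraries and did not pass (log2 fold change -0.10, 95% interval -0.26 to 0.06, adjusted p = 0.445).

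Prkar2b (ENSMUSG00000002997, chromosome 12), the type II subunit characteristic of brain and fat, was the 1 tested kinase gene called lower, a call that most alternative fits lost. It had 1649 and 1559 normalized reads in control replicates 1 and 2 and 1123 and 1116 in the induced replicates, resting on 1311, 1480, 1033 and 1203 reads. The induced libraries were almost equal to each other and lay below both controls. The mean went from 1604 ± 63.6 to 1119 ± 5.39 (SD, n = 2), 69.8% of the control mean. Lined up by replicate number, a pairing that the labels do not give, the values were 68.1% for replicate 1 and 71.6% for replicate 2. The log2 fold change was -0.52 (SE 0.08, 95% interval -0.71 to -0.32), with an adjusted p of 0.0312. The call was lost on omission of each of the 4 libraries in turn (adjusted p = 0.0610 to 0.107), with a replicate block (0.0630), without the filter (0.0655) and without the variance trend (0.100), while the log2 fold change stayed between -0.56 and -0.48. In bulk RNA, fewer cells that use a gene and less RNA per cell cannot be told apart.

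The fibroblast marker Col3a1 was also called lower, with 75211 ± 9416 normalized reads in controls and 48020 ± 765 in induced cells (adjusted p = 0.0309). It was the 1 called among the 6 fibroblast markers tested, beside 3.42% of all tested genes. That call was lost without either induced library (adjusted p up to 0.0858), with a replicate block (0.0617), without the filter (0.0671) and without the variance trend (0.124). The summed level of the 7 listed fibroblast markers was 326485 to 374462 in controls and 319394 to 319851 in induced cells, and that of the 8 neuron markers with a row was 5799 to 5910 and 5333 to 5790. The astrocyte marker Aldh1l1 had 57.8 and 65.3 normalized reads in controls and 5.44 and 14.8 in induced cells (log2 fold change -2.63, adjusted p = 0.0618), and the oligodendrocyte marker Mbp had 21.4 and 33.7 against 62.0 and 64.9 (1.21, adjusted p = 0.137). Slc1a3 had 3302 and 2956 against 3426 and 4237 (adjusted p = 0.269), and Tmem119 had 2184 and 1830 against 1579 and 1644 (adjusted p = 0.190). Aif1, the other microglia marker tested, went the opposite way to Tmem119, with 46.5 and 67.4 against 73.9 and 91.8 (log2 fold change 0.55, adjusted p = 0.362). The part of these markers in the Prkar2b difference was not tested.

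The nearest tested protein-coding genes on either side of Prkar2b on chromosome 12 were again looked up by position, with 1 untested gene passed over before Ccdc71l. Hbp1, a transcription repressor gene, had 1855 and 1678 normalized reads in controls and 2049 and 2002 in induced cells (log2 fold change 0.20, adjusted p = 0.263). Ccdc71l had 357 and 402 against 381 and 415 (0.07, adjusted p = 0.813). Neither passed, and both estimates had the opposite sign to that of Prkar2b.

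**Figure D3:**
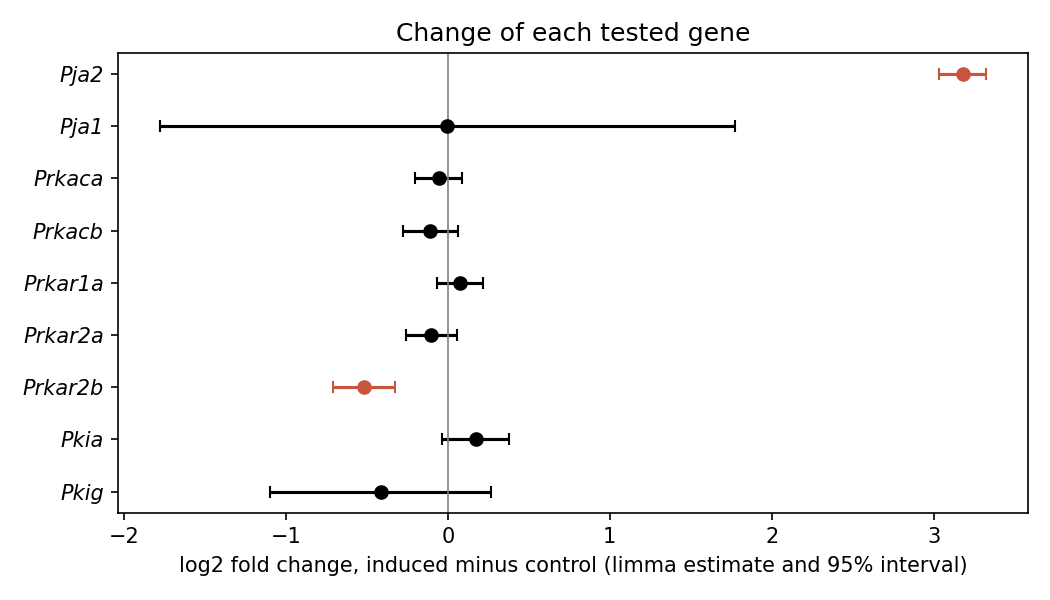
Limma log2 fold change, induced minus control, with its 95% interval for the 9 tested genes; red marks an adjusted p under 0.05. Pja2 is at 3.18 and Prkar2b at -0.52, and the interval of each other gene includes 0, widest for Pja1 and Pkig.

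Because the regulatory isoforms share 1 pool of catalytic subunits, their relative transcript levels were compared per kilobase of exon. Prkar2b made up 11.9% and 11.0% of the regulatory level in controls and 8.16% and 7.94% in induced cells. Prkar1a made up 72.4% and 73.7% against 77.5% and 77.3%, and Prkar2a 15.7% and 15.3% against 14.3% and 14.7%. The libraries of the groups did not overlap for any of these shares, which are not independent of one another since they sum to a whole.

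The ratio of Prkar2b to Prkar2a was 0.761 and 0.719 in controls and 0.570 and 0.539 in induced cells, lower in both induced libraries than in both controls. The exact two-sided permutation test of this ratio gave p = 0.333, the smallest that the design allows. The ratio of type I to type II subunits was 2.62 and 2.80 in controls and 3.45 and 3.41 in induced cells, with the same exact p of 0.333. In that ratio both induced libraries were higher. The ratio of all regulatory subunits to Prkaca plus Prkacb, with Prkx left out, was 1.46 ± 0.0018 in controls and 1.52 ± 0.0470 in induced cells. Its exact p was again 0.333. Both induced values, 1.49 and 1.55, lay above both controls, the lower one close to them. Relative to the type II subunits together, Pja2 transcript was at 0.887 and 0.866 in controls and at 9.73 and 9.34 in induced cells. These ratios are of transcripts, and subunit protein was not measured.

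**Figure D4:**
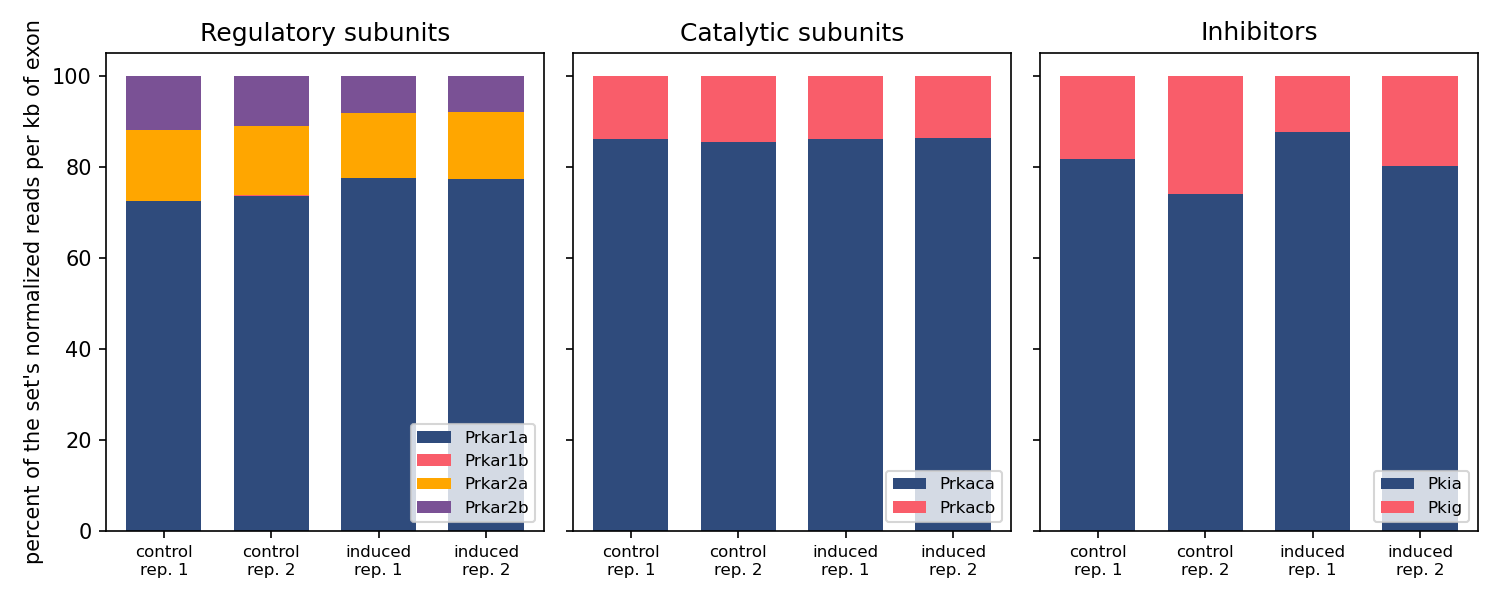
Share of each gene in the summed normalized reads per kilobase of exon of the regulatory subunits, the catalytic subunits and the inhibitors, in percent, with 1 bar per library. The Prkar2b segment shrinks from 11.9% and 11.0% in controls to 8.16% and 7.94% in induced cells, while the catalytic shares stay within 85.5% to 86.3% for Prkaca.

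The inhibitors, small proteins that block the free catalytic subunit and carry it out of the nucleus, did not pass the test. Pkia (ENSMUSG00000027499, chromosome 3) had 1818 and 1659 normalized reads in controls and 2026 and 1888 in induced cells. Both induced libraries were above both controls, with a log2 fold change of 0.17 (95% interval -0.04 to 0.38, adjusted p = 0.337). Pkig (ENSMUSG00000035268, chromosome 2) had 440 and 626 normalized reads in controls and 308 and 503 in induced cells. The groups overlapped. Lined up by replicate number, a pairing that the labels do not give, the induced libraries were at 69.9% and 80.4% of the control. Its log2 fold change was -0.41 (95% interval -1.10 to 0.27, adjusted p = 0.473), and it ran from -0.77 to -0.06 when single libraries were left out. Per kilobase of exon Pkia exceeded Pkig in every library, by 4.43 and 2.84-fold in controls and by 7.06 and 4.03-fold in induced cells. Pkib, the third gene of this family, had no row and was not analysed here.

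Over the 9 tested genes, 1 was called higher, 1 lower and 7 neither, against 2.08% higher and 1.34% lower among all tested genes. The higher one was Pja2, the induced gene, and the lower one Prkar2b, whose call most alternative fits lost. Members were chosen with earlier results of these data known, so the shares are given for scale and are no test of the set. The same 2 had an unadjusted p under 0.05. The groups did not overlap for 7 of the 9, 3 higher and 4 lower, against 51.3% of all tested genes. Without Pja2, the median log2 fold change of the other 8 was -0.08, beside 0.0025 for all tested genes. Another scaling of the libraries moved the median of all genes by less than 0.01.

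Genes with the most similar pattern over the 4 libraries were found by the Euclidean distance between log2 values centred on each gene's mean, as a description. Closest to Pja2 were Sema3c, Cd80, Ms4a4d, Mgam and Chil1, at distances of 0.525 to 0.714 against a median of 3.19 for all tested genes. Sema3c, a secreted guidance cue, had 1324 and 899 normalized reads in controls and 7625 and 7427 in induced cells. Closest to Pja1 were Spata33, Alkbh4, Olfml3, Camk2a and Zfp568 (0.166 to 0.460, median 1.74). Spata33 had 224 and 72.7 in controls and 217 and 74.2 in induced cells, and Camk2a, a neuronal kinase gene, had 108 and 30.5 against 107 and 23.2, the same split by replicate number. Closest to Prkar2b were Pank3, Gm2427, Tnfrsf9, 9130023H24Rik and Paox (0.0249 to 0.0403, median 0.571). Pank3, which encodes an enzyme of coenzyme A synthesis, had 6940 and 6426 in controls and 4720 and 4694 in induced cells. Pank3 (adjusted p = 0.0230) and Tnfrsf9 (0.0359) passed the test, while Gm2427 (0.139), 9130023H24Rik (0.101) and Paox (0.0836) did not. These genes were picked for their likeness to Prkar2b, so their direction follows from the choice.

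Known targets of the ligases were looked at in listed genes, by transcript only. The ligases act on proteins, which were not measured, so these values do not show whether a target protein was affected. Of the reported PJA2 targets outside protein kinase A, 8 were tested and limma called 0, with 0 at an unadjusted p under 0.05 and 0 called by limma voom on the recovered reads (median log2 fold change 0.05). Mob1a, a coactivator of the LATS kinases in the Hippo pathway, had 7131 and 7260 normalized reads in controls and 7147 and 1614 in induced cells. The second induced library stood alone at the low value, and the log2 fold change was -1.08 with an SE of 0.63 (adjusted p = 0.414). Rtn4, the gene of the axon growth inhibitor Nogo, had 8867 and 8706 against 9123 and 9324 (adjusted p = 0.553). Of the reported PJA1 targets, 5 were tested and limma called 0, with 1 at an unadjusted p under 0.05 and 0 by limma voom (median 0.08). Sptbn1, a spectrin gene, had 30949 and 28275 against 23014 and 25995 (log2 fold change -0.27, adjusted p = 0.169). Maged1 had 18841 and 19858 against 20737 and 20069 (adjusted p = 0.546). Of the UBE2D enzymes, which pass ubiquitin to many RING ligases, 3 were tested and limma called 0, with 0 at an unadjusted p under 0.05 and 0 by limma voom. The log2 fold change was -0.09 for Ube2d3 (adjusted p = 0.548) and 0.06 for Ube2d2a (adjusted p = 0.652).

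Around the kinase, limma called 1 of 5 tested adenylyl cyclase genes higher and 0 lower, beside 2.08% and 1.34% of all tested genes. The median log2 fold change of the 5 was 0.49, the value of the called gene, and 2 of the 5 had an unadjusted p under 0.05. The called gene was Adcy7, a cyclase enhanced by G protein βγ subunits, with 3046 and 2813 normalized reads in controls and 4006 and 4201 in induced cells (log2 fold change 0.49, SE 0.07, adjusted p = 0.0306). Adcy7 lost its call on omission of 3 of the 4 libraries, all but control replicate 1 (adjusted p up to 0.107), with a replicate block (0.0630), without the filter (0.0669) and without the variance trend (0.120). Of the stimulatory and inhibitory G alpha genes 4 were tested and limma called 0, with 0 at an unadjusted p under 0.05 and 0 by limma voom (median 0.07). Gnas, which couples receptors to the cyclases, had a log2 fold change of 0.10 (adjusted p = 0.487), and Gnai2 one of 0.04 (adjusted p = 0.763).

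Of the cyclic AMP phosphodiesterase genes 5 were tested and limma called 0, with 1 at an unadjusted p under 0.05 and 0 by limma voom (median -0.02). The log2 fold change was -0.06 for Pde7a (adjusted p = 0.753) and -0.02 for Pde4a (adjusted p = 0.901). Of the A-kinase anchors 15 were tested and limma called 0, with 3 at an unadjusted p under 0.05 and 0 by limma voom (median 0.06). Akap2 had a log2 fold change of 0.09 (adjusted p = 0.539) and Akap8 of 0.13 (adjusted p = 0.311). Akap12 had the lowest estimate of the anchors and is named for that, after its values were seen: 133 and 160 normalized reads in controls and 81.6 and 73.3 in induced cells, without passing. Rapgef3, which encodes the cyclic AMP sensor EPAC1, was the 1 other effector tested (log2 fold change -0.30, adjusted p = 0.365).

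Downstream, limma called 0 of 8 CREB factors, with 0 at an unadjusted p under 0.05 and 0 by limma voom (median -0.05). Ep300 and Crebbp, the genes of the coactivator acetylases, stood at -0.18 (adjusted p = 0.262) and 0.17 (adjusted p = 0.300) on that scale. Creb1, named after its values were seen, had 2506 and 776 normalized reads in controls and 1333 and 1982 in induced cells, so replicates lay far apart in both groups and the groups overlapped. Of 16 CREB-responsive genes, limma called Junb higher and Egr1 lower, calls that several alternative fits lost. The other 14 did not pass, and of all tested genes 3.42% were called. The 16 log2 fold changes ran from -0.81 to 1.17 (median 0.05, 9 above 0 and 7 below). An unadjusted p under 0.05 was found for 6, a count with no share of all tested genes beside it. Junb, an AP-1 subunit gene, had 1291 and 1415 normalized reads in controls and 2269 and 2075 in induced cells (log2 fold change 0.68, SE 0.09, adjusted p = 0.0226). Egr1, an immediate early transcription factor gene, had 2496 and 2682 against 1806 and 1641 (-0.59, SE 0.08, adjusted p = 0.0280). Both also respond to growth factor signalling. The Junb call was lost without control replicate 1 or induced replicate 1 (adjusted p up to 0.0648), that of Egr1 without either control or induced replicate 2 (up to 0.0873). A replicate block ended that of Egr1 (adjusted p = 0.0523). Both calls were also lost without the filter (adjusted p = 0.0520 for Junb and 0.0628 for Egr1) and without the variance trend (0.0899 and 0.107).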

How the data were processed

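The deposited table holds log2 values per gene for 4 libraries. The authors' log2 values carry a pseudocount of 1, since undoing the log and the pseudocount gave whole multiples of a library's step for 100% of values (tolerance 0.01). The submitters' processing notes name HISAT, Cufflinks and mm9; the sources used here do not name the counting tool or the scaling. Libraries were prepared with a TruSeq RNA kit, per the labels' protocols. Whole reads were recovered from the steps (25787452 to 35262653 per library; 1 CPM is 25.8 to 35.3 reads).

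Genes averaging 1 CPM or more were fitted with limma 3.58.1 (R 4.3.3) on the deposited log2 values, with a variance trend, both groups and no covariate; tests are two-sided. The script was tested on simulated data. The design foresaw a quasi-likelihood count test only for plain counts. Counts of replicates differed beyond sampling noise (mean chi-square per gene 18.3 in controls, 14.0 in induced cells), so none is a copy. Exon lengths and sequences came from GENCODE M21 (GRCm38), a newer build than mm9, so chromosomes are given without coordinates. Members and lists were chosen with earlier results of these data known. The rule named all members, the called genes of each list or else its 2 most abundant, and the 5 nearest patterns. As an exception, some genes under the filter are given by count only. Genes named outside the rule are marked or were taken by position. Alternatives were voom with TMM, library totals, another pseudocount, other filters, no trend, a replicate block, each library left out, and transcript length.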

Additional observations from a re-analysis of the deposited data

How the results depend on the processing

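Pja2 passed the threshold in all 11 alternative fits, with log2 fold changes of 3.14 to 3.21. Prkar2b passed in 4 of 11, with TMM and voom, library totals, a pseudocount of 5 and a filter of 5 CPM; its log2 fold change was -0.52 without the filter (adjusted p = 0.0655), without the variance trend (0.100) and with a replicate block (0.0630), and -0.56 to -0.48 without single libraries. Pja1 changed sign with voom (0.0057), without control replicate 1 (0.92) and without induced replicate 2 (0.79), and ran from -0.92 to 0.92 without single libraries. The other 6 tested members kept their sign and stayed short of the threshold in all 11 fits. Genes called higher and lower numbered 276 and 178, against 100 and 59 without the filter, 64 and 52 without the trend, and 157 and 104 with a replicate block; without single libraries they numbered 113 to 204 and 78 to 136, in fits with fewer samples. Among these fits, the lowest counts of higher genes were 126 and 113 without induced replicate 1 and 2, and of lower genes 78 and 111 without control replicate 1 and 2. The labels do not say that replicate numbers mark a shared batch, and replicate differences of the groups had a correlation of -0.095 across genes, so the numbers were not taken as pairs. With the longest transcript as gene length, Prkaca made up 76.6% of the catalytic level in controls in place of 85.8%, and Prkar2b 10.2% and 7.10% of the regulatory level in place of 11.5% and 8.05%. The cause of the other changes was not tested. Depth limits Prkar1b, at 0 to 5 reads; for Pja1 and Pkig the spread of replicates is the limit.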
